A study of Rattus norvegicus with 9 samples.

Results

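Elastic fibre and microfibril genes were followed in the livers of 9 male Sprague-Dawley rats, 3 in each of 3 groups. The genes were named by a list of 9 (Eln, Fbn1, Ltbp1, Ltbp2, Fbln1, Fbln5, Mfap4, Emilin1 and Adamtsl2), and 8 of them had a row in both tables, out of 17156 genes listed in either. Mfap4 was not analysed here. The list was drawn up because Eln, Ltbp1 and Adamtsl2 stayed high in the TA livers, so the values of these genes in every comparison, and those of every member in TA against normal livers, are given as a description with no test. The rule used no numerical threshold.

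Rats of the model and TA groups received carbon tetrachloride (CCl4), a hepatotoxin widely used to induce liver fibrosis, by gavage at 2 ml/kg of a 50% solution in oil, 2 times per week over 9 weeks. The TA group was then given tormentic acid (TA), a plant triterpenoid, at 3 mg/kg over 6 weeks, while normal rats received saline in place of CCl4. CCl4 exposure was thus shared by the model and TA rats, and livers given TA without CCl4 were not analysed here. The labels describe the model and TA livers as hepatitis-stage tissue and give no age, and they name the TA libraries without a dose, so these were taken as 1 group. The read total on genes ran from 13156735 to 18090405 per liver. The hepatocyte markers Alb, Apoa1, Ttr, Serpina1 and Cps1 were detected in every group, with a summed level of 26016 CPM (read counts set against library size with TMM factors) in model rat 1 and 72808 to 145123 CPM in the other 8 livers. Model rat 1 stood apart in other ways too: its 50 most abundant genes took 27.9% of its reads, against 40.4% to 45.7% in the others, and its TMM factor was 1.69 against 0.816 to 1.16. The members' model comparisons and retained shares are therefore also given without this rat where it moved them.

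Elastic fibres are built from a core of cross-linked elastin laid down on a scaffold of microfibrils, whose backbone is fibrillin. Latent TGF-beta binding proteins (LTBPs) sit on this scaffold and hold TGF-beta in a latent form, fibulins and EMILIN-1 link the elastin core to the microfibrils and to cells, lysyl oxidases cross-link the elastin, and ADAMTS-like proteins bind fibrillin and LTBPs. In healthy liver, elastic fibres lie mainly around portal tracts and vessels, and they accumulate in the septa of fibrotic liver.

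The RefSeq promoter table (rat build GRCr8) held an entry for 5 of the 9 members. The 250 bases before the gene start are shown for Ltbp1, Ltbp2 and Adamtsl2, which were at a like level across the model livers after TMM scaling, and for Fbn1, which peaked in model rat 1 (values below). Capitals mark matches on either strand to 5 motifs: TATAAA (a core promoter box), GGGCGG (GC box), TGACTCA (AP-1), CAGAC (SMAD half-site) and GGAATG (TEAD). The windows are chr6:26177302-26177551 on the minus strand for Ltbp1, chr6:110257299-110257548 on the minus strand for Ltbp2, chr3:30802450-30802699 on the plus strand for Adamtsl2 and chr3:133203391-133203640 on the minus strand for Fbn1.
Ltbp1: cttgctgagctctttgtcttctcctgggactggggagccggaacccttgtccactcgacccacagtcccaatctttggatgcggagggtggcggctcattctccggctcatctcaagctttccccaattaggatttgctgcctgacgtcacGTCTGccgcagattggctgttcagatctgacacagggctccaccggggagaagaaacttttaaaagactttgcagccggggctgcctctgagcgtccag
Ltbp2: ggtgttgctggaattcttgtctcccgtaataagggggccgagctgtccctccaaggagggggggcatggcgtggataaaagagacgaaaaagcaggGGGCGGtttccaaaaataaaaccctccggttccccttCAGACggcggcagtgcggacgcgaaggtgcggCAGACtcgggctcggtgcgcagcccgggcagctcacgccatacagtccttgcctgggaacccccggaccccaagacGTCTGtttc
Adamtsl2: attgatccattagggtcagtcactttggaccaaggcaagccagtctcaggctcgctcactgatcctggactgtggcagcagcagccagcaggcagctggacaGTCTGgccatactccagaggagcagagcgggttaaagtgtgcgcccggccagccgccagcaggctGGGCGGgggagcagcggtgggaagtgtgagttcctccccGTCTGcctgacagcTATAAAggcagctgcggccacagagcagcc
Fbn1: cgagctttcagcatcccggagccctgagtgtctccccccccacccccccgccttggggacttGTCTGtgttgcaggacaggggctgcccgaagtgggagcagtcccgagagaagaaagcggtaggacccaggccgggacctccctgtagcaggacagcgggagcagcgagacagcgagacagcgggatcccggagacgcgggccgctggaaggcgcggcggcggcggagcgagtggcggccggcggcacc

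CAGAC was found 1 time in the windows of Ltbp1 and Fbn1, 2 times in that of Adamtsl2 and 3 times in that of Ltbp2, and 42.93% of the 33469 promoter windows of the same length held it. The window of Adamtsl2 held TATAAA at position -30 from the gene start, a motif found in 12.93% of all windows and not in the other 3 printed. GGGCGG was present in the windows of Ltbp2 and Adamtsl2 and in 30.47% of all windows. Neither TGACTCA nor GGAATG, found in 4.046% and 12.06% of all windows, occurred in these 4. These matches describe the letters alone.

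Eln encodes tropoelastin, the soluble precursor of the elastin core. Its level was 12.4, 7.47 and 11.7 CPM in normal rats 1 to 3, 307, 122 and 102 CPM in model rats 1 to 3, and 71.9, 46.4 and 66.1 CPM in TA rats 1 to 3. The 3 groups did not overlap, with every TA liver above every normal liver and below every model liver. The log2 fold change was 4.08 (SE 0.51), a 16.9-fold difference, in Model VS Normal, -1.52 (SE 0.47) in TA VS Model and 2.52 (SE 0.27) in TA VS Normal. Without model rat 1 these values became 3.40 for model against normal livers and -0.85 for TA against model livers. In these whole-liver libraries, a change in the number of cells that express a gene and a change in RNA per cell cannot be told apart, for Eln and for every gene that follows.

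**Figure D1:**
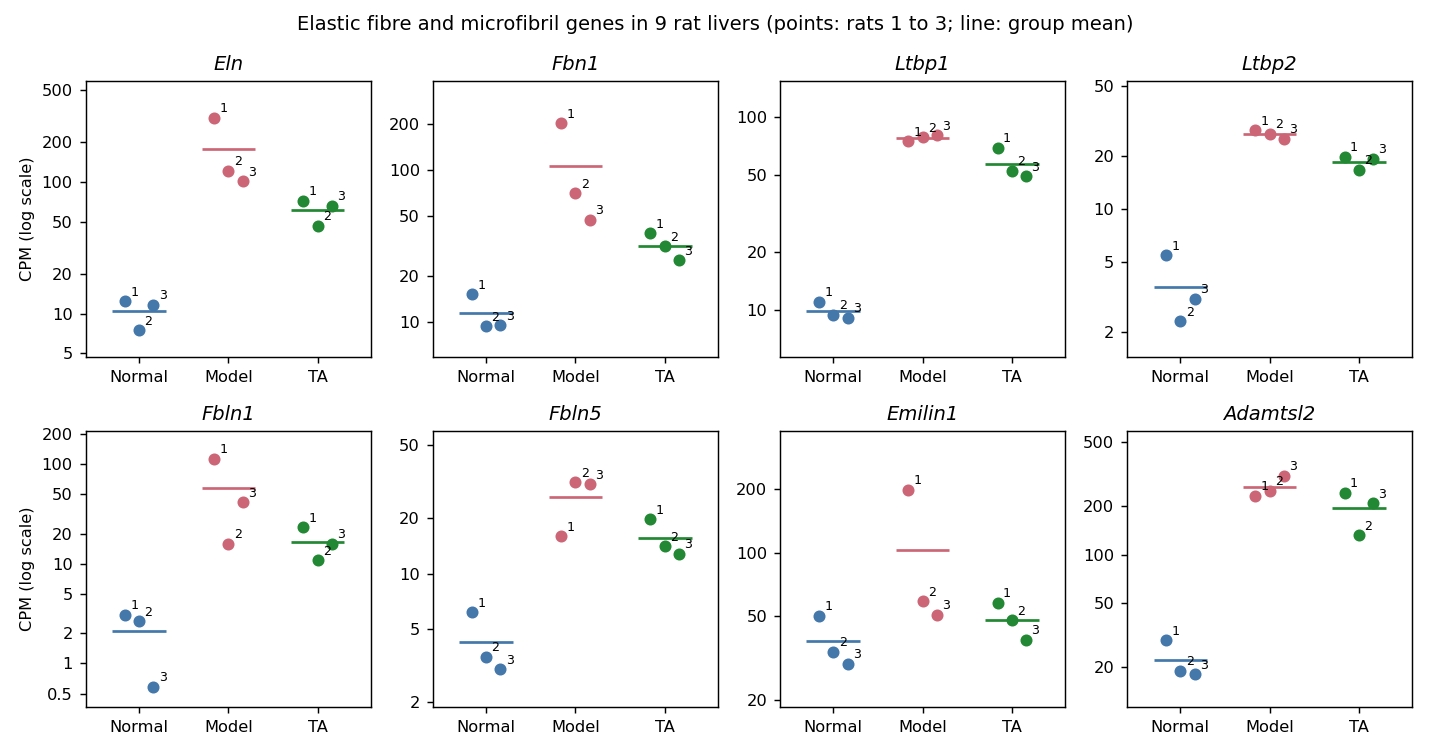
Level of each of the 8 members in 9 livers, in CPM after TMM scaling on a log axis; points are single rats labelled 1 to 3 and lines are group means. On this scale Ltbp1, Ltbp2 and Adamtsl2 differed little between the 3 model rats, while Eln, Fbn1, Fbln1 and Emilin1 were highest in model rat 1 and Fbln5 was lowest in it.

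Fbn1 encodes fibrillin-1, the main structural protein of microfibrils. It was measured at 15.3, 9.40 and 9.57 CPM in the normal livers, 202, 70.5 and 46.9 CPM in the model livers and 38.2, 31.5 and 25.5 CPM in the TA livers. Again no group overlapped with another. Fbn1 rose in Model VS Normal by a log2 fold change of 3.23 (SE 0.57, adjusted p = 0.0215, edgeR's quasi-likelihood test with Benjamini-Hochberg adjustment), and by 2.35 without model rat 1. In TA VS Model the log2 fold change was -1.75 (SE 0.54, edgeR adjusted p = 0.260), and it was -0.87 without model rat 1. The TA livers remained 1.45 (SE 0.27) above the normal livers on the log2 scale.

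Ltbp1 and Ltbp2 encode LTBP proteins of the microfibril, of which LTBP-1 covalently binds latent TGF-beta and LTBP-2 does not. Ltbp1 was at 11.05, 9.46 and 9.15 CPM in the normal livers, 74.5, 78.3 and 80.4 CPM in the model livers and 69.0, 52.6 and 49.1 CPM in the TA livers. Ltbp2 was at 5.48, 2.32 and 3.11 CPM, 27.9, 26.7 and 24.97 CPM, and 19.7, 16.7 and 19.2 CPM in the same order. For both genes the 3 groups were separate, and after TMM scaling the model rats had a coefficient of variation of 3.85% for Ltbp1 and 5.59% for Ltbp2. In the deposited FPKM values, which carry no TMM factor, it was 22.3% for Ltbp1 and 31.6% for Ltbp2, and model rat 1 was the highest of the 3 for both genes.

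The log2 fold change of Ltbp1 was 2.98 (SE 0.22) in Model VS Normal, -0.45 (SE 0.24) in TA VS Model and 2.495 (SE 0.22) in TA VS Normal. Ltbp2 rose in Model VS Normal, with a log2 fold change of 2.88 (SE 0.35, edgeR adjusted p = 0.0104). Its TA VS Model value was -0.51 (SE 0.20, edgeR adjusted p = 0.2997), and its TA VS Normal value was 2.33 (SE 0.34). Both LTBP genes therefore lay much nearer to the model than to the normal level in the TA livers.

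The fibulins Fbln1 and Fbln5 encode glycoproteins of elastic fibres and basement membranes, and fibulin-5 guides elastin onto the microfibril. Fbln1 was measured at 3.07, 2.64 and 0.588 CPM in the normal livers, 113, 15.9 and 41.1 CPM in the model livers and 23.0, 10.7 and 15.9 CPM in the TA livers. The lowest normal value came from 7 reads. The model and TA ranges overlapped, since model rat 2 lay within the TA range. Fbln5 was at 6.15, 3.54 and 3.02 CPM, 16.0, 31.3 and 30.4 CPM, and 19.7, 14.0 and 12.8 CPM in the same order. Here model rat 1 was the lowest of the model rats and lay within the TA range.

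Both fibulins rose in Model VS Normal, Fbln1 by a log2 fold change of 4.74 (SE 0.85, edgeR adjusted p = 0.0219) and Fbln5 by 2.61 (SE 0.39, edgeR adjusted p = 0.0140). In TA VS Model, Fbln1 gave -1.77 (SE 0.66, edgeR adjusted p = 0.282) and Fbln5 gave -0.73 (SE 0.32, edgeR adjusted p = 0.325). With model rat 1 left out, Fbln1 was at 3.72 in the first of these comparisons and at -0.77 in the second, and Fbln5 at 2.85 and -0.98. In TA VS Normal the log2 fold changes were 2.93 (SE 0.54) for Fbln1 and 1.85 (SE 0.34) for Fbln5, with every TA liver above every normal liver for both genes.

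Emilin1 encodes EMILIN-1, a glycoprotein at the interface between elastin and microfibrils. It was at 50.5, 34.1 and 29.8 CPM in the normal livers, 200, 59.2 and 51.1 CPM in the model livers and 58.0, 48.0 and 38.9 CPM in the TA livers. Model rat 1 was far above the rest, model rat 3 was only just above the highest normal liver, and the TA range overlapped with both other groups. The log2 fold change in Model VS Normal was 1.45 (SE 0.54, edgeR adjusted p = 0.127), and it was 0.52 without model rat 1. TA VS Model gave -1.10 (SE 0.53, edgeR adjusted p = 0.352), or -0.18 without model rat 1, and TA VS Normal gave 0.31 (SE 0.26).

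Adamtsl2 encodes a secreted ADAMTS-like glycoprotein without protease activity that binds fibrillin-1 and LTBP-1. Its level was 29.5, 19.1 and 18.1 CPM in the normal livers, 233, 249 and 309 CPM in the model livers and 241, 132 and 208 CPM in the TA livers. TA rat 1 was above the lowest model rat, so that these groups overlapped, and all TA and model livers were above all normal livers. The log2 fold change was 3.57 (SE 0.34) in Model VS Normal, -0.44 (SE 0.35) in TA VS Model and 3.10 (SE 0.31), an 8.55-fold difference, in TA VS Normal.

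**Figure D2:**
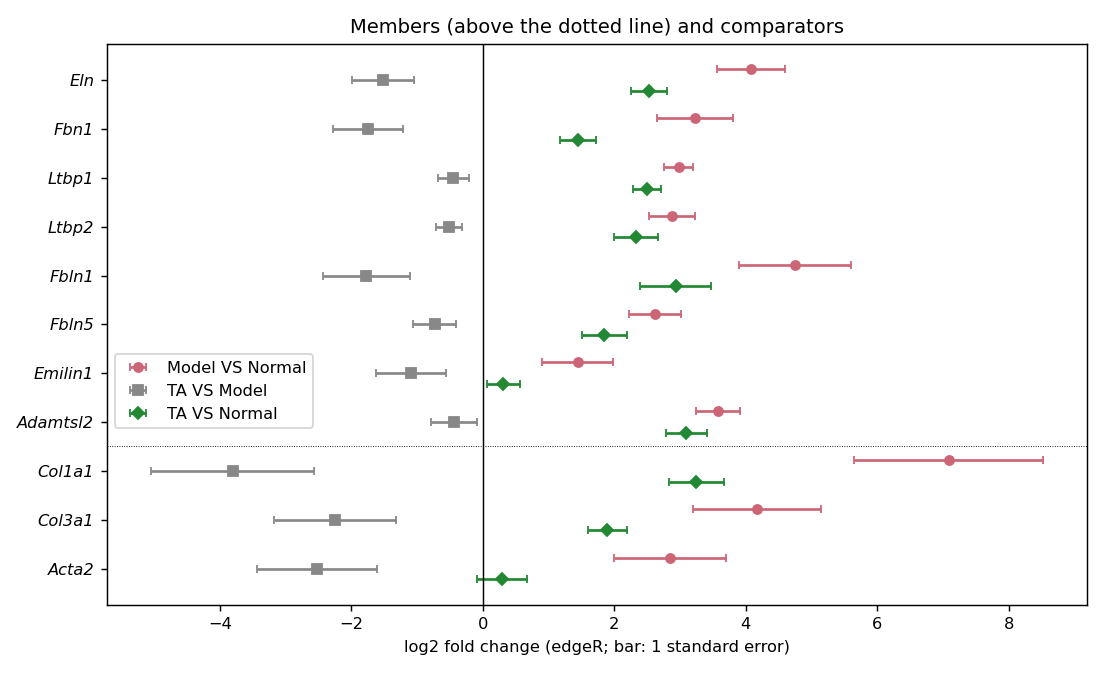
Log2 fold changes of the 8 members and of the comparators Col1a1, Col3a1 and Acta2 in the 3 comparisons; bars are 1 standard error. In TA VS Normal, Adamtsl2 (3.10) was the highest of the members and Emilin1 (0.31) the lowest.

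In Model VS Normal, the model and normal ranges were apart for all 8 members, with the model livers higher. Leaving aside Eln, Ltbp1 and Adamtsl2, from which nothing is read, this was so for all 5 of the others, and over all 12730 genes tested for 20.9%. Of the 5 measured members outside Eln, Ltbp1 and Adamtsl2, all 5 were higher by the criterion used in the study (a p under 0.05 before adjustment together with a log2 fold change larger than 1) and 0 were lower. The background of this criterion was 16.6% of all genes higher and 5.55% lower. At an adjusted p under 0.05, 4 of the 5 rose (Fbn1, Ltbp2, Fbln1 and Fbln5), against 6.86% of all genes. Without model rat 1 it was again 4 of 5 at the adjusted threshold, and 4 of 5 at the study's criterion. The shares of all genes without this rat are not given here. The adjusted calls depended on the normal livers: without normal rat 1 only Ltbp2 passed, and without normal rat 2 or normal rat 3 the number was 0, although the log2 fold changes of the 5 genes stayed between 1.26 and 5.07. The median log2 fold change of these 5 genes was 2.88, beside 0.02 over all genes. All members were chosen with earlier results of these data known. The counts of the 5 beside all genes are therefore a description, here and in TA VS Model.

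In TA VS Model, the TA livers were all below the model livers for 4 of the 8 members (Eln, Fbn1, Ltbp1 and Ltbp2). Of the 5 members outside Eln, Ltbp1 and Adamtsl2 these were 2, while 12.6% of the 12781 genes tested were separated in this way. Of the 5 members tested, 2 (Fbn1 and Fbln1) were lower by the study's criterion and 0 were higher, against 10.2% and 2.11% of all genes. Without model rat 1 the number lower was 0 of 5, without TA rat 3 it was also 0 and without TA rat 2 it was 1. With library totals in place of TMM factors all 5 were lower, but the median log2 fold change over all genes then moved to -0.48. The shares of all genes in these settings are not given here, so nothing is read from these counts about the members. At an adjusted p under 0.05, edgeR called 0 of the 5 and 0% of all genes, while 1999 genes had an unadjusted p under 0.05 and DESeq2 called 541 genes, Fbn1 (adjusted p = 0.0495) among them. The 5 members outside Eln, Ltbp1 and Adamtsl2 had a median log2 fold change of -1.10, beside -0.00 over all genes.

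In TA VS Normal, 7 of the 8 members were higher in every TA liver than in every normal liver, Emilin1 being the exception, beside 8.26% of the 12179 genes tested. The median of the members was 2.41, beside -0.01 over all genes. Nothing is read from this count, since the list was chosen on this contrast. The comparisons share their model or normal rats and are not independent of each other. All 8 members kept their direction in all 3 comparisons under every alternative run.

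The position of the TA livers between the normal and the model level was expressed as a retained share, the TA minus normal difference divided by the model minus normal difference on the log2 CPM scale. A share of 0 is the normal level and 1 the model level. It was 0.867 for Adamtsl2, 0.843 for Ltbp1, 0.823 for Ltbp2, 0.730 for Fbln5, 0.688 for Fbln1, 0.651 for Eln, 0.501 for Fbn1 and 0.303 for Emilin1. The 866 other genes that were higher in Model VS Normal at an adjusted p under 0.05 had a median of 0.439, with quartiles of 0.314 and 0.568. Emilin1 did not meet the threshold of this set. The list was chosen because Eln, Ltbp1 and Adamtsl2 stayed high in the TA livers, which is what the share measures. Nothing is therefore read from the place of the members against these genes, with or without model rat 1. The 3 single TA rats ranged from 0.725 to 0.968 for Adamtsl2 and from 0.0550 to 0.542 for Emilin1.

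Taking model rat 1 out lowered the model level of the genes that peaked in it, and their retained share became 0.818 for Fbln1, 0.743 for Eln, 0.637 for Emilin1 and 0.629 for Fbn1. The shares of Adamtsl2 (0.847), Ltbp1 (0.835) and Ltbp2 (0.833) hardly moved. That of Fbln5, which was lowest in model rat 1 among the model rats, went down from 0.730 to 0.651. The median of the 866 genes became 0.508. With this rat left out the members spanned 0.629 to 0.847, a narrower range. For the collagen genes Col1a1 and Col3a1, the share went from 0.568 and 0.548 to 0.751 and 0.769, close to the 0.743 of Eln.

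**Figure D3:**
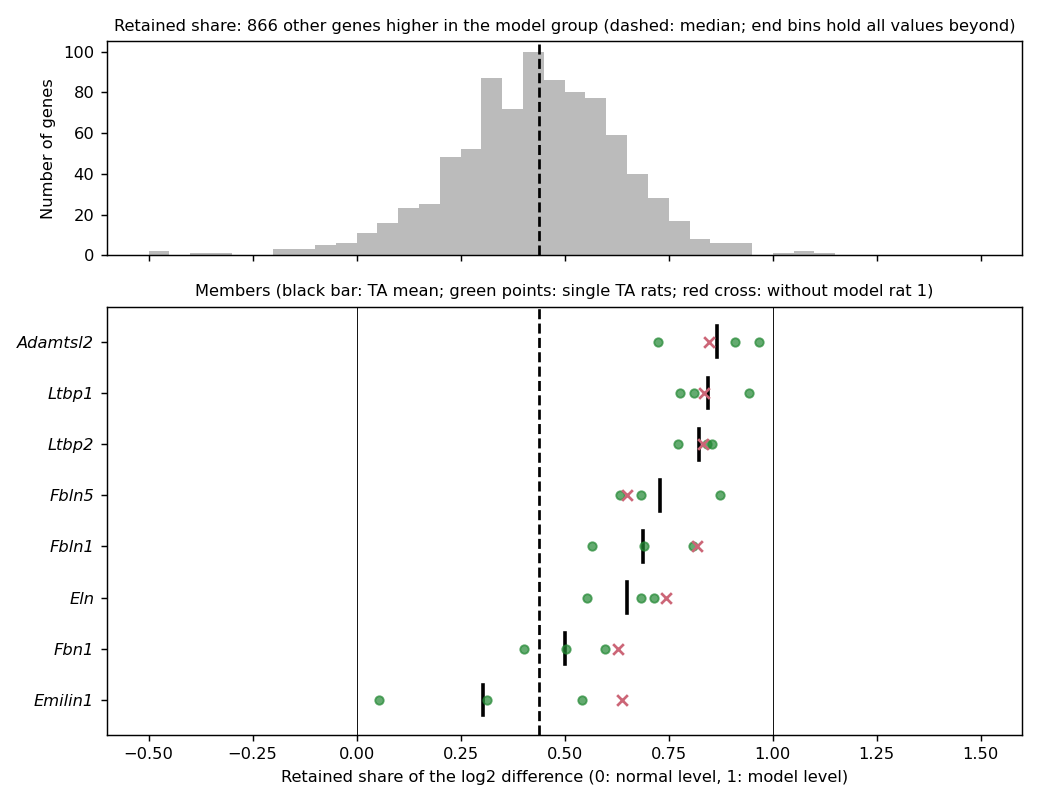
Retained share of the log2 difference in the TA livers, as a histogram of 866 other genes higher in the model group (median 0.439, dashed) and, for each member, the TA mean (black bar), the single TA rats (green points) and the value without model rat 1 (red cross). Adamtsl2, Ltbp1 and Ltbp2 lie at 0.823 to 0.867. Without model rat 1 the values of Fbln1, Eln, Fbn1 and Emilin1 move up and that of Fbln5 moves down. The list was chosen on staying high in the TA livers, so nothing is read from its place against the histogram.

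The members differed from each other within the model group. Model rat 1 was above the mean of the other model rats (on the log scale) by 4.39-fold for Fbln1, 3.63-fold for Emilin1, 3.50-fold for Fbn1 and 2.75-fold for Eln. The same ratio was 1.08 for Ltbp2, 0.939 for Ltbp1, 0.839 for Adamtsl2 and 0.520 for Fbln5. The 866 other genes that were higher in the model group had a median ratio of 1.97, and all genes one of 0.996. Col1a1, the main fibrillar collagen chain, was 18.7-fold higher in model rat 1, and Col3a1 was 7.91-fold higher. With library totals in place of TMM factors the ratios were 6.75, 5.57, 5.38 and 4.23 for the first 4 genes and 1.66, 1.44, 1.29 and 0.796 for the other 4, with 1.52 for the median of all genes.

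**Figure D4:**
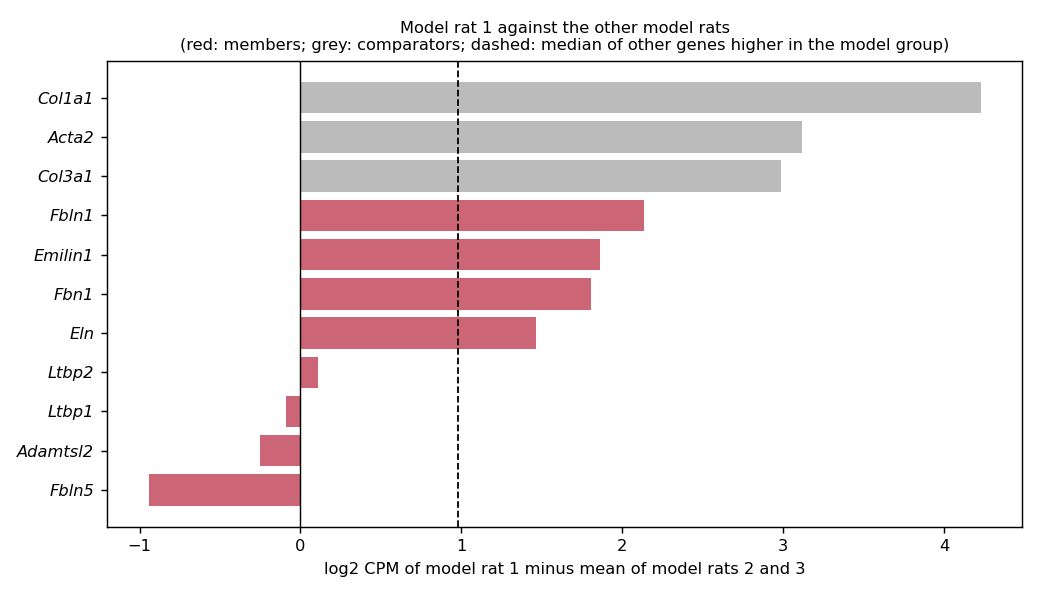
Log2 CPM of model rat 1 minus the mean of model rats 2 and 3, for the 8 members (red) and 3 comparators (grey); the dashed line is the median of the 866 other genes higher in the model group. Fbln1, Emilin1, Fbn1 and Eln lie above that median and Ltbp2, Ltbp1, Adamtsl2 and Fbln5 below it.

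Markers of several cell types moved with model rat 1. The summed level of 6 myofibroblast markers (Acta2, Tagln, Col1a1, Col3a1, Postn and Timp1) was 12145 CPM in that rat, 1094 and 1326 CPM in the other model rats, 168 to 249 CPM in normal livers and 574 to 1059 CPM in TA livers. Col1a1 (4442 CPM) and Col3a1 (6901 CPM) carried most of the sum in model rat 1. For 5 vascular smooth muscle markers the sum was 185 CPM in model rat 1 against 48.7 and 36.3 CPM, and for 4 macrophage markers 552 CPM against 132 and 125 CPM. Of the macrophage markers, Marco had a lower mean in model than in normal livers (5.11 against 22.9 CPM) and the rest a higher one. The 6 hepatic stellate cell markers summed to 183 CPM in model rat 1 and to 39.4 and 56.7 CPM in the other model rats, beside 24.8 to 55.7 CPM in normal and 43.9 to 62.7 CPM in TA livers. Des, at 91.6 CPM in model rat 1, is in both this list and the smooth muscle list, so the 2 sums are not independent. Among the stellate markers, Hhip (0.163 against 1.27 CPM) and Lrat (15.9 against 16.2 CPM) had lower means in model than in normal livers and the rest higher ones. The 6 portal fibroblast markers summed to 353 to 384 CPM in normal, 212 to 299 CPM in model and 265 to 365 CPM in TA livers. Dpt carried most of this sum, with a mean of 362 CPM in normal and 225 CPM in model livers, while the means of the other 5 were higher in the model group, among them Thy1 at 9.50 against 0.114 CPM and Cd34 at 7.87 against 0.769 CPM. The 4 bile duct markers were at 15.7 to 23.5 CPM in normal, 75.8 to 139 CPM in model and 28.7 to 32.4 CPM in TA livers, and the 4 mesothelial markers at 0.839 to 2.49, 25.5 to 83.4 and 4.65 to 12.6 CPM, with 1 of the 4 at 0 in every normal liver. Adipocyte and skeletal muscle markers, 1 of 3 measured for each, were at most at 0.263 CPM. The part of these cell types in the members' levels was not tested.

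Levels of different genes were compared per length, in FPKM. In the normal livers the order was Emilin1 (8.36 ± 2.47 FPKM, SD, n = 3), Adamtsl2 (5.08 ± 1.48), Eln (2.45 ± 0.589), Fbln5, Ltbp1, Fbn1, Fbln1 and Ltbp2 (0.455 ± 0.208), and among neighbours in this order only the ranges of Adamtsl2 and Eln did not overlap. In the model livers Adamtsl2 (91.2 ± 14.6 FPKM) came first, followed by Eln (71.1 ± 63.6), Emilin1, Fbln1, Ltbp1, Fbn1, Fbln5 and Ltbp2 (5.18 ± 1.64). Only Fbln5 and Ltbp2 were separate as neighbours there. This order rested on model rat 1, and without it the means ran from Adamtsl2 (83.3 FPKM) and Eln (34.5 FPKM) through Emilin1 (15.9 FPKM), Ltbp1 (14.004 FPKM), Fbln5 (13.7 FPKM), Fbln1 (9.56 FPKM) and Fbn1 (6.61 FPKM) to Ltbp2 (4.26 FPKM). In the TA livers the order was Adamtsl2 (49.8 ± 16.6 FPKM), Eln (16.1 ± 4.21), Emilin1, Ltbp1, Fbln5, Fbln1, Fbn1 and Ltbp2 (2.59 ± 0.348), the order of the model means without model rat 1, and Adamtsl2 was separate from Eln. Emilin1 thus led in the normal livers and Adamtsl2 in both CCl4 groups.

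Ratios of FPKM values within a liver do not depend on how libraries are scaled. The ratio of Eln to Fbn1, elastin core to microfibril backbone, was 2.23, 2.19 and 3.36 in the normal livers, 4.19, 4.76 and 5.97 in the model livers and 5.19, 4.07 and 7.14 in the TA livers. Both CCl4 groups were above the normal livers and overlapped with each other. The ratio of Ltbp1 to Fbn1 was 1.14, 1.59 and 1.51, then 0.585, 1.76 and 2.71, then 2.86, 2.65 and 3.05, so that it was higher in the TA livers than in all normal livers and spread widely in the model group. The ratio of Adamtsl2 to Eln was 2.33, 2.49 and 1.52 in normal, 0.741, 1.99 and 2.97 in model and 3.28, 2.77 and 3.08 in TA livers. Set against Col1a1, Eln had a ratio of 1.10, 1.11 and 2.59 in normal, 0.112, 0.853 and 0.680 in model and 0.665, 0.802 and 1.28 in TA livers, lowest in model rat 1.

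Likeness was measured over the 12078 genes whose log2 CPM averaged 0 or more. By this measure the genes nearest to Eln over the 9 livers were Adamts2, the procollagen N-proteinase, with a root mean square difference of 0.228 in log2 CPM centred on the normal mean, Cygb, which encodes cytoglobin, at 0.255, and Gpx3, a secreted glutathione peroxidase, at 0.273. The median over all genes was 2.76. Nearest to Adamtsl2 were Gpc3, encoding the proteoglycan glypican-3 (0.198), Dpep1, encoding a membrane dipeptidase (0.309), and Scara5, a scavenger receptor gene (0.379). For Ltbp1 the nearest gene of all was Ltbp2, at 0.271. Outside the members, Art4 (0.290), Foxp3 (0.299) and Bhlhe22 (0.314) followed for Ltbp1. These 3 had low counts, Foxp3 between 1 and 63 reads per liver. Ltbp1 was the only member whose nearest gene of all was another member, and the places that follow are among the 12078 genes. The nearest member was in place 2 for Ltbp2, 7 for Adamtsl2, 15 for Fbln5, 33 for Fbln1, 59 for Eln and 364 for Fbn1. For Emilin1 it was in place 8173, at 1.22, beside a median of 1.03 over all genes. Likeness in pattern is a description over 9 livers that share the same groups and depth.

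Related genes were taken from 6 lists holding 51 genes, of which 49 had a row in the tables. The lists cover elastic fibre proteins, lysyl oxidases, elastin-degrading proteases, and TGF-beta with its activators. They were drawn up with earlier results of these data known, so their counts beside all genes are a description in all 3 comparisons. In Model VS Normal, 42 passed the filter on low counts. By the study's criterion 24 were higher and 2 were lower, against 16.6% of all genes higher and 5.55% lower. At an adjusted p under 0.05 edgeR called 15 higher, against 6.86% of all genes, and 1 lower, beside 129 of all 12730 genes. Without model rat 1, 19 were higher and 1 was lower by the study's criterion, and 12 were higher and 1 was lower at the adjusted threshold. Without normal rat 1, 1 higher and 1 lower passed the adjusted threshold, and without normal rat 2 or 3 the number was 0. The shares of all genes with a liver left out are not given here. The median log2 fold change was 1.56, beside 0.02 over all genes.

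The lysyl oxidases were divided. Loxl1, whose product cross-links elastin and binds fibulin-5, rose by a log2 fold change of 5.32 (SE 0.70, edgeR adjusted p = 0.0116) in Model VS Normal. Loxl2 was at 3.21 (SE 0.90, edgeR adjusted p = 0.0659), Loxl3 at 1.20 and Loxl4 at -1.25 (SE 0.47, edgeR adjusted p = 0.131). Model rat 1 was at 4.28, 6.48, 2.69 and 0.315 times the mean of the other model rats (on the log scale) for Loxl1 to Loxl4. Fold changes of single related genes without this rat are not given here. Lox, chosen for mention after its values were seen, had a log2 fold change of -0.01 between model and normal livers. Between TA and normal livers this value was -2.23. Lox was at 106, 87.2 and 25.9 CPM in the normal livers and 14.2 to 18.7 CPM in the TA livers. In the model livers Lox ran from 35.7 to 133 CPM, and model rat 1 was at 3.23 times the others' mean (on the log scale). The value of -0.01 therefore leaned on model rat 1, and a value without this rat is not given here.

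Of the fibrillin, LTBP and microfibril-associated list, 4 of 7 genes were tested. Ltbp3 rose by 2.99 (SE 0.59, edgeR adjusted p = 0.0294) and Mfap2, a fibrillin-binding microfibril protein gene, by 4.12 (SE 0.95, edgeR adjusted p = 0.0417) on the log2 scale in Model VS Normal. Ltbp4 (0.65) and Mfap3 (0.14) did not pass either threshold. Of 8 fibulin, hemicentin and EMILIN genes tested, 3 rose, Efemp1 by 2.79, Efemp2 (fibulin-4) by 3.09 and Mmrn1 (multimerin-1) by 4.46, with edgeR adjusted p of 0.0414, 0.0178 and 0.0153. Fbln2 was at 2.64 (edgeR adjusted p = 0.113). Of 7 ADAMTS and ADAMTS-like genes tested, Adamtsl1 rose by 3.84 (edgeR adjusted p = 0.0156) and Papln by 1.58 (edgeR adjusted p = 0.0296), while Adamts10 was at 1.02 (edgeR adjusted p = 0.165) and Adamtsl4 at -0.81 (edgeR adjusted p = 0.273).

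Among 8 elastin-degrading proteases tested, Mmp12 (macrophage elastase) rose by 6.09 (SE 0.98, edgeR adjusted p = 0.0163) and Mmp2 (gelatinase A) by 4.001 (SE 0.75, edgeR adjusted p = 0.0263) in Model VS Normal. Ctsk, encoding cathepsin K, was at 3.11 (edgeR adjusted p = 0.0556). Cela1, encoding a chymotrypsin-like elastase, fell by 2.75 on the log2 scale (SE 0.35, edgeR adjusted p = 0.0104). For these 4 proteases the ratio of model rat 1 to the other model rats was 5.70 (Mmp12), 4.50 (Mmp2), 6.53 (Ctsk) and 0.634 (Cela1). Of 10 genes for TGF-beta isoforms and their activators, 5 rose. Among these were Tgfb2 by 2.93, Tgfb3 by 3.77, Thbs1 (thrombospondin-1) by 3.65 and Itgb6, the beta chain of a TGF-beta-activating integrin, by 3.97, with edgeR adjusted p of 0.0215, 0.0104, 0.0138 and 0.00871.

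**Figure D5:**
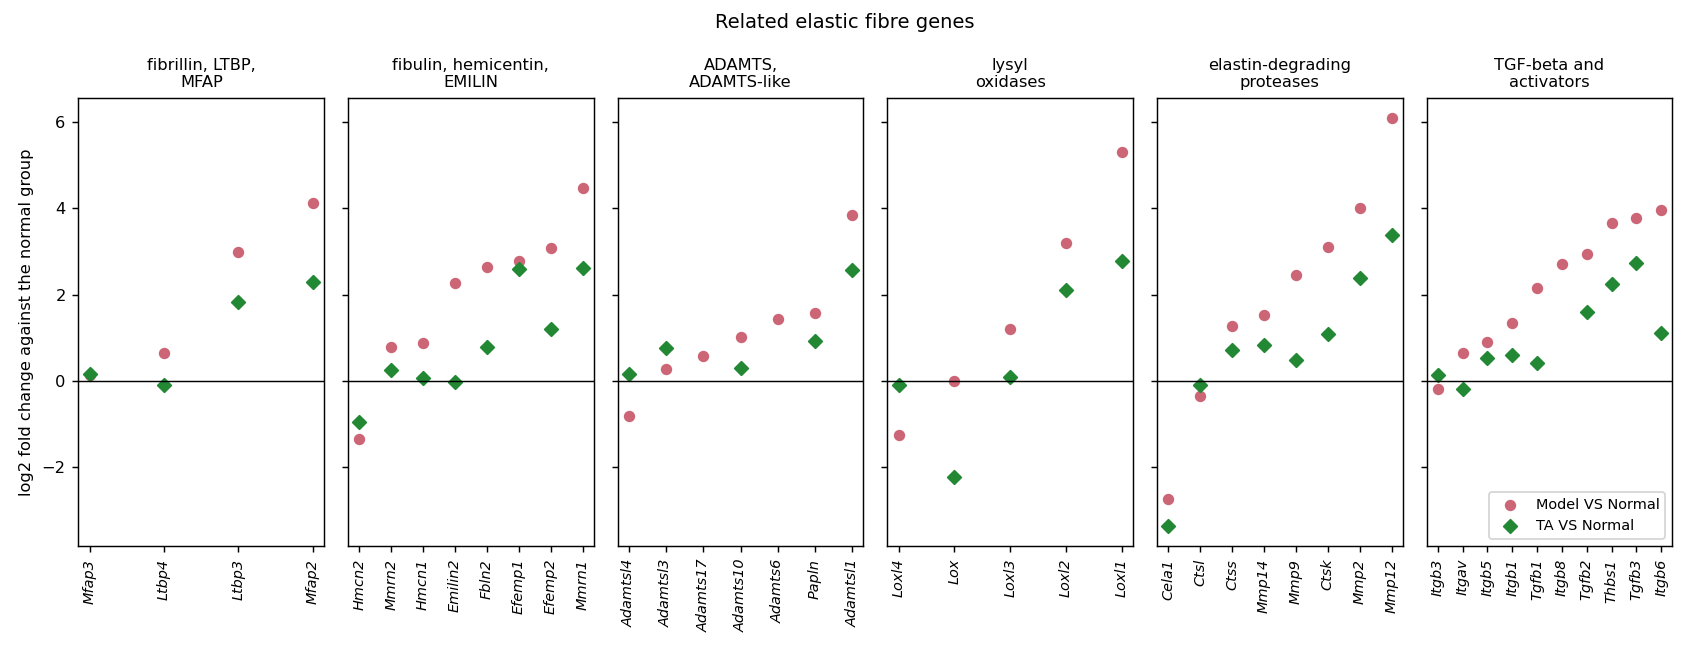
Log2 fold changes against the normal group for the related genes tested, by list; circles are Model VS Normal and diamonds TA VS Normal. Loxl1 stands at 5.32 and 2.77, Efemp1 at 2.79 and 2.59, and Cela1 at -2.75 and -3.37.

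In TA VS Model, 15 of 42 related genes were lower by the study's criterion and 0 higher, against 10.2% of all genes lower and 2.11% higher. The median log2 fold change was -1.03, beside -0.00 over all genes. No related gene passed the adjusted threshold in edgeR's test, and DESeq2 called 5 lower, beside 541 calls over all genes in either direction. Without model rat 1, 8 passed the study's criterion, and without TA rat 3 or TA rat 2 it was 8 or 9. The shares of all genes with these rats left out are not given here. Itgb6 had the smallest p of the genes named here, with a log2 fold change of -2.83 (SE 0.50, edgeR adjusted p = 0.230), followed by Lox at -2.18 (SE 0.50, edgeR adjusted p = 0.237), Loxl1 at -2.52 (SE 0.64, edgeR adjusted p = 0.246) and Efemp2 at -1.84 (SE 0.49, edgeR adjusted p = 0.252). Efemp1 was at -0.16 (SE 0.60), close to the model level.

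In TA VS Normal, 39 related genes were tested. By the study's criterion 14 were higher and 2 lower, against 4.24% of all genes higher and 1.02% lower. At an adjusted p under 0.05 edgeR called 2 higher, against 0.23% of all genes, and 1 lower, beside 4 of all 12179 genes. The genes that rose were Loxl1 by 2.77 (SE 0.35, adjusted p = 0.0220) and Tgfb3 by 2.74 (SE 0.37, adjusted p = 0.0255), and Cela1 fell by 3.37 on the log2 scale (SE 0.31, adjusted p = 0.00905). All 3 also passed with the replicate number as a block, where 7 related genes were higher and 2 lower and the calls over all genes also grew. The calls of Loxl1 and Tgfb3 were lost without normal rat 1, 2 or 3 or without TA rat 1 (adjusted p between 0.0846 and 0.124), and that of Cela1 was lost without TA rat 1 (adjusted p = 0.0592).

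Col1a1, Col3a1 and Acta2, which mark activated fibrogenic cells, were set beside the members. Col1a1 was at 18.2, 10.9 and 7.30 CPM in the normal livers, 4442, 232 and 243 CPM in the model livers and 176, 94.0 and 83.7 CPM in the TA livers. Its log2 fold change was 7.08 (SE 1.43, edgeR adjusted p = 0.0309) in Model VS Normal, -3.80 (SE 1.24, edgeR adjusted p = 0.264) in TA VS Model and 3.25 (SE 0.42, edgeR adjusted p = 0.0236) in TA VS Normal. With model rat 1 left out, Col1a1 was at 4.27 against normal livers and at -0.999 in TA against model livers. Col3a1 had a TA VS Normal value of 1.89 (SE 0.30, edgeR adjusted p = 0.0522), with every TA liver above every normal liver. Acta2, the smooth muscle actin of myofibroblasts, was at 8.30 to 8.65 CPM in normal, 147, 24.4 and 11.6 CPM in model and 10.8, 5.08 and 16.0 CPM in TA livers, so that the TA range enclosed the normal one. Its TA VS Normal value was 0.29 (SE 0.38). Those of Adamtsl2 (3.10), Eln (2.52) and Ltbp1 (2.495) lay between Col3a1 and Col1a1. The difference between these genes was not tested.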

How the data were processed

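Liver mRNA of 9 rats was sequenced, 3 per group, with 1 library each. The members and lists were chosen with earlier results of these data known. Reads were trimmed by the authors and aligned with STAR, and HTSeq-count assigned them to genes. The genome behind the counts is unsettled, since the paper's methods name a human build, the submitters' processing notes name mm9 and the symbols are written as in rat, so no coordinates are given for the counts. Of the 17156 symbols, 15601 (90.9%) matched rat RefSeq (GRCr8). The library kit is not given as strand-specific, so overlapping and antisense genes cannot be told apart.

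The authors deposited raw read counts without normalization, and all tests used these. The deposited signal values, which are counts divided by DESeq2 size factors, were not used for any result. The FPKM values deposited by the authors were used to compare genes. The log2 fold changes and the p-values deposited by the authors are their own comparisons and were not used. Of the columns that belong to no sample, 0 were used.

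Tests used edgeR 4.0.16 in R 4.3.3 (quasi-likelihood F test, TMM, low-count filter, Benjamini-Hochberg adjustment over all genes tested, only the livers compared). Standard errors were obtained from F and the fold change (log2 value over root F). CPM on the log2 scale used a prior count of 2. A gene was called at an adjusted p under 0.05, or by the study's criterion of an unadjusted p below 0.05 and an absolute log2 value above 1. The fit was tested on simulated data. An exact permutation of 3 against 3 cannot go below p = 0.1. Each library was taken as 1 rat from its label, and p-values measure the spread between these samples. Alternatives were library totals, RLE factors, DESeq2 1.42.0, no low-count filter, the replicate number as a block, leaving out each liver, and, added after seeing the data, the newer form of the quasi-likelihood fit.

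Replicate numbers come from the labels, and same-numbered rats are different animals. After removal of the group means, same-numbered rats correlated at 0.233, 0.370 and 0.452 in TA VS Normal, so the blocked value is given there where it changes a count. In Model VS Normal they were 0.210, -0.0515 and -0.0547 and in TA VS Model 0.213, -0.0382 and 0.00349.

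Besides the members and comparators, the genes named are up to 4 per related list with the smallest p in Model VS Normal, those with an adjusted p under 0.05 in TA VS Normal, and the 3 genes nearest in pattern to Eln, Ltbp1 and Adamtsl2.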

Additional observations from a re-analysis of the deposited data

How the results depend on the processing

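No member's log2 fold change or retained share changed sign under any alternative run. Over all genes, Model VS Normal gave 1002 adjusted calls, 1980 with library totals and 2654 with DESeq2. TA VS Model gave 0, and 541 with DESeq2. TA VS Normal gave 32, and 56 with library totals, 360 with DESeq2, 76 with no low-count filter and 203 with the replicate block. The block rests on label numbers alone and is not a pairing, since same-numbered rats are different animals. With library totals, the median over all genes moved to 0.65 in Model VS Normal, -0.48 in TA VS Model and 0.18 in TA VS Normal, and 5 members outside the reason for choice and 26 related genes passed the study's criterion in TA VS Model, against 2 and 15. The cause of these shifts was not tested.

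Leaving out 1 liver at a time moved the adjusted calls over all genes from 0 to 2537 in Model VS Normal (0 without normal rat 2 or 3), from 0 to 1 in TA VS Model and from 1 to 61 in TA VS Normal. By the study's criterion, 4 to 5 of the 5 members were called in Model VS Normal and 0 to 3 in TA VS Model, and 20 to 29, 8 to 18 and 14 to 22 related genes in Model VS Normal, TA VS Model and TA VS Normal. The shares of all genes by this criterion with a liver left out are not given here, so nothing is read from these ranges. Emilin1 reached the adjusted threshold against normal livers without model rat 3 and under no other alternative (edgeR adjusted p = 0.0463). The replicate block changed the call of no member in Model VS Normal or TA VS Model.

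Depth limited Fbln1 most, with 7 reads in normal rat 3, while the other members had 36 or more reads in every liver. Adjusted calls among the related genes in TA VS Normal, 2 higher and 1 lower, became 12 and 2 with DESeq2 and 4 and 1 with no low-count filter.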
